A study of Mus musculus with 6 samples.

Results

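The interleukin-1 (IL-1) family was examined through 9 genes in RNA sequencing of the mouse melanoma line D4M-3A. The 9 genes were taken by name from the 43043 genes listed for each sample, and comprise the cytokines Il1a, Il1b, Il18 and Il33, the antagonists Il1rn and Il18bp, and the receptor chains Il1r1, Il1rap and Il1rl1. All 9 were listed in all 6 samples. The 3 control (Ctrl) samples had been transduced by lentivirus with an empty CRISPR-Cas9 construct, and the 3 Nfkbiz knockout (Nfkbiz KO) samples with a construct directed against Nfkbiz, which encodes IκBζ, a nuclear cofactor of NF-κB. Both groups were selected with puromycin and grown in the same medium without a further stimulus. Loss of IκBζ and cutting by Cas9 cannot be told apart in this design, because the control construct was empty, and whether the KO cells were a pool or a clone is not given in the sources used here.

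IL-1 family cytokines bind a ligand-binding receptor chain, which then recruits an accessory chain. The cytoplasmic TIR domains of both chains assemble MyD88 and IRAK kinases, which activate TRAF6, TAK1, NF-κB and MAP kinases. IL-1α and IL-1β act through IL-1R1, IL-33 acts through ST2 (encoded by Il1rl1), and both receptors share the accessory protein IL-1RAcP (encoded by Il1rap). IL-18 has its own pair of chains, and secreted IL-18BP binds and neutralizes it, whereas IL-1Ra (encoded by Il1rn) occupies IL-1R1 without signalling. IL-33 is a nuclear protein that is released by damaged cells as an alarmin, and Nfkbiz is itself a gene that IL-1 induces through MyD88.

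IL-33 and its receptor changed in opposite directions, and the sequences before their transcription starts are shown first. Il33 is shown at the first of its 2 RefSeq starts. RefSeq gives Il1rl1 a distal and a proximal start, which lie 10.1 kb apart and, as background, are used to different extents in different cell types. Reads counted per gene do not separate them. In the following windows, which end before the first annotated exon that they reach, capitals mark matches to GATAAG, the core recognised by GATA factors, and each line runs 5′ to 3′ on the plus strand of GRCm39.
Il33, chr19:29902263-29902482: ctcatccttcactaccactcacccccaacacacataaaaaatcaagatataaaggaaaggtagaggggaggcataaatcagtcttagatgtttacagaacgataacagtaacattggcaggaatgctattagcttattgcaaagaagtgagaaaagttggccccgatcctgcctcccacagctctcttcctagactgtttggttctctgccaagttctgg
Il1rl1 distal start, chr1:40468480-40468729: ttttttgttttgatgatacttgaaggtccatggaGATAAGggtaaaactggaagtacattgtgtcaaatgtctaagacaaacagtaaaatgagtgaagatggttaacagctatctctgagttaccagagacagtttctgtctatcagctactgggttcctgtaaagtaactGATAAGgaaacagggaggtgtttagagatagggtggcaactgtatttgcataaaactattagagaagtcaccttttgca
Il1rl1 proximal start, chr1:40478539-40478786: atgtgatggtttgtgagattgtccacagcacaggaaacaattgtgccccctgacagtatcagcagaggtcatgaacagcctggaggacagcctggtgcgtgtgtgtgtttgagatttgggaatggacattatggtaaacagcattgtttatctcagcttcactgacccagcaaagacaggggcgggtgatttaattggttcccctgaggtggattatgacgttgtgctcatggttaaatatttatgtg
The distal window of Il1rl1 held 2 matches, which begin at -216 and -79 relative to the start, and the proximal window and that of Il33 held none. On either strand, GATAAG occurred in the 250 bases before 6.55% of the 32851 starts of the RefSeq table. None of the 3 windows held the NF-κB pattern GGGNNNNNCC (45.8% of all starts), the STAT pattern TTCNNNGAA (7.02%), the interferon response core GAAANNGAAA (2.98%) or the AP-1 pattern TGANTCA (6.75%). For other family genes, the NF-κB pattern occurred before Il1rap and before some starts of Il1r1 and Il1rn. The AP-1 pattern occurred before Il1a and a start of Il1rn. None of the patterns occurred before Il1b, Il18 and Il18bp. These patterns are loose descriptions of letters and not measured binding sites. GATAAG and TGANTCA were added after the sequences had been seen.

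Gene reads per sample ranged from 32219900 to 44927203, and 14419 genes passed the filter on low counts and were tested with edgeR. At this depth, 3 reads correspond to 0.0668 to 0.0931 CPM (reads scaled to the gene reads of the sample), which was taken as the floor of detection and covers counting error only. The targeted gene, Nfkbiz, ranged from 63.4 to 75.2 TPM (a transcript level scaled by transcript length and sequencing depth) across Ctrl samples and from 34.7 to 35.1 TPM across Nfkbiz KO samples. The log2 fold change of -0.98 (SE, the standard error, 0.056; adjusted p = 6e-08, edgeR) showed that the transcript was reduced and not absent. Of 10 melanocyte lineage markers, 1 (Mitf) reached 1 TPM in any sample, and Sox10, Mlana and Tyr were listed at 0. Of 5 fibroblast markers, 4 reached 1 TPM, and their summed level lay between 429 and 495 TPM in Ctrl but between 341 and 375 TPM in Nfkbiz KO samples. Most of this sum was Col1a1, with 339 to 389 TPM in Ctrl against 243 to 274 TPM in Nfkbiz KO samples, and Dcn was also lower, whereas the ranges of Pdgfra (32.8 to 40.5 against 38.4 to 40.2 TPM) and Pdgfrb (39.9 to 50.5 against 48.5 to 53.8 TPM) overlapped and were not lower.

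Of the 9 IL-1 family genes, 6 were expressed well above the floor, and 3 (Il1a, Il1b and Il1rn) were at or near it. All 6 expressed genes passed an adjusted p of 0.05, 3 of them higher (Il1rl1, Il18bp and Il18) and 3 lower (Il33, Il1rap and Il1r1) in Nfkbiz KO. Among all genes tested, 36.6% passed this threshold, 18.2% higher and 18.4% lower. At least 1.5-fold changes with an adjusted p of 0.05 or less were found for 4 of the 9 genes (Il33, Il1rl1, Il18bp and Il18) and for 11.6% of all genes tested. A stricter call, which also required a fold change above 2 and group means more than 4 TPM apart, was met by 3 of the 9 genes (Il33, Il1rl1 and Il18bp) and by 1.79% of all genes tested. In all 6 expressed genes the Ctrl and Nfkbiz KO samples did not overlap in log2 CPM, which held for 48.4% of all genes tested. For each of these genes, a two-sided exact permutation test gave p = 0.1, below which 3 samples against 3 cannot go. Whether fewer cells expressed a gene or each cell held less of its RNA cannot be told apart in RNA from whole cultures.

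**Figure D1:**
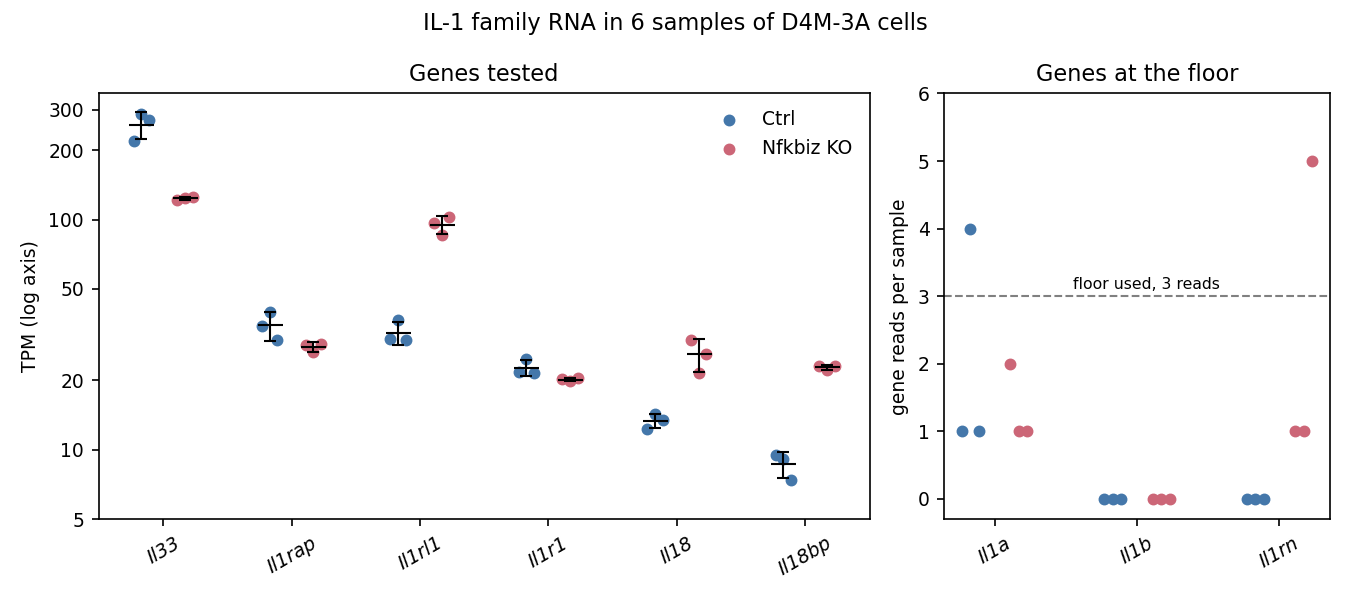
TPM per sample (log axis) of the 6 expressed genes on the left and gene reads per sample of the 3 genes at the floor on the right, with Ctrl in blue and Nfkbiz KO in red. On the left, horizontal bars are group means with SD (n = 3 each), and the groups are apart for all 6 genes, with Il33, Il1rap and Il1r1 lower and Il1rl1, Il18 and Il18bp higher in Nfkbiz KO. On the right, the dashed line is the floor of 3 reads.

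Il33, the cytokine with the highest RNA level in the family, occupies bases 29902483 to 29938933 of chromosome 19 (GRCm39, plus strand). It had 219, 287 and 269.6 TPM in Ctrl replicates 1, 2 and 3, and 121, 124 and 125 TPM in Nfkbiz KO replicates 1, 2 and 3. The Ctrl samples differed more among themselves than the Nfkbiz KO samples did, but the lowest Ctrl value was well above the highest Nfkbiz KO value. The means were 258 ± 35.4 and 124 ± 1.94 TPM (mean ± SD of 3 samples each). From 6659 to 10469 reads in Ctrl and 3238 to 4643 reads in Nfkbiz KO samples, the log2 fold change was -1.16 (SE 0.081, 95% interval -1.34 to -0.98, adjusted p = 3.3e-07, edgeR), a 2.24-fold decrease. Ranked by mean TPM among genes above 0, Il33 was gene 537 of 19035 in Ctrl and gene 1325 of 19026 in Nfkbiz KO, so that it remained an abundant transcript, above 93.0% of genes. Il33 is also known from fibroblasts and endothelial cells. Of the fibroblast markers given above, Col1a1 and Dcn were lower in Nfkbiz KO and Pdgfra and Pdgfrb were not. The sum of 4 endothelial markers was 0.55 to 0.827 TPM in Ctrl against 1.32 to 1.85 TPM in Nfkbiz KO samples. This rested on Cdh5 (0.397 to 0.671 against 1.21 to 1.83 TPM), whereas Pecam1, Kdr and Tek stayed under 1 TPM in every sample with overlapping ranges. The part of these markers in the change of Il33 was not tested.

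Il1rl1, which encodes the IL-33 receptor ST2, moved in the opposite direction. Ctrl replicates 1, 2 and 3 had 30.2, 36.4 and 29.8 TPM, and Nfkbiz KO replicates 1, 2 and 3 had 96.8, 86.0 and 102 TPM. Each Nfkbiz KO value was above every Ctrl value. With group levels of 32.1 ± 3.72 and 95 ± 8.32 TPM (mean ± SD of 3 samples each), the log2 fold change from 2193 to 2798 and 6166 to 9176 reads was 1.47 (SE 0.075, 95% interval 1.31 to 1.64, adjusted p = 2.3e-08, edgeR), a 2.78-fold increase. By mean TPM it moved from gene 4465 to gene 1794 in the ranking used for Il33. The gene (chromosome 1, 40468730 to 40504575, plus strand) encodes a membrane receptor and a soluble decoy form by alternative starts and ends, and the level of each form was not measured here. Mast cells express much Il1rl1. Of 5 mast cell markers, 4 (Kit, Cpa3, Fcer1a and Tpsb2) had 0 TPM in all 6 samples, and the summed level did not exceed 0.0836 TPM.

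As ligand and receptor moved apart, the ratio of their TPM necessarily changed more than either gene. It restates the changes of both genes and is not a separate result. The ratio of Il33 to Il1rl1 was 7.25, 7.86 and 9.04 in Ctrl replicates 1, 2 and 3, and 1.25, 1.44 and 1.22 in Nfkbiz KO replicates 1, 2 and 3. Its mean was 8.05 ± 0.908 in Ctrl and 1.31 ± 0.12 in Nfkbiz KO (mean ± SD of 3 samples each), a log2 difference of -2.62, and the groups did not overlap (exact permutation test, two-sided, p = 0.1). TPM is scaled by transcript length, but it was given per gene and the forms of Il1rl1 were not resolved. The ratio is therefore only an approximate ratio of RNA molecules, and no protein was measured.

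Il1rap, the accessory chain that ST2 shares with IL-1R1, lies on chromosome 16 from 26400350 to 26548880 on the plus strand. It had 34.6, 39.8 and 29.9 TPM in Ctrl replicates 1, 2 and 3, against 28.5, 26.5 and 28.9 TPM in Nfkbiz KO replicates 1, 2 and 3. The highest Nfkbiz KO value was just under the lowest Ctrl value. Its mean fell from 34.7 ± 4.94 to 28.0 ± 1.30 TPM (mean ± SD of 3 samples each), a log2 fold change of -0.40 from reads (SE 0.074, adjusted p = 0.00099, edgeR), and 93.2% of its reads were unique. With limma on log2(TPM + 1), the change was -0.29 on that scale and no longer passed (adjusted p = 0.092).

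The ratio of Il1rl1 to Il1rap compared the RNA of ST2 and its accessory chain, without separating the membrane and soluble forms of ST2. It was 0.872, 0.916 and 0.998 in Ctrl replicates 1, 2 and 3, so that Il1rap had slightly higher TPM, with near equality in replicate 3. In Nfkbiz KO replicates 1, 2 and 3 it was 3.39, 3.24 and 3.54, so that Il1rl1 exceeded Il1rap in each sample. The log2 difference was 1.87, without overlap (exact permutation test, two-sided, p = 0.1). This difference also restates the opposite changes of both genes given above.

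Il1r1, the signalling receptor for IL-1α and IL-1β, had 21.7, 24.8 and 21.5 TPM in Ctrl replicates 1, 2 and 3, and 20.3, 19.8 and 20.5 TPM in Nfkbiz KO replicates 1, 2 and 3. The groups were separate but close. The means were 22.7 ± 1.85 and 20.2 ± 0.35 TPM (mean ± SD of 3 samples each), and the log2 fold change of -0.26 (SE 0.059, adjusted p = 0.0044, edgeR) was the smallest among the 6 expressed genes. With limma on log2(TPM + 1), it was -0.16 and did not pass (adjusted p = 0.12). The upper quartile of the absolute log2 fold change over all genes tested was 0.39, and Il1r1 was below this value. The ratio of Il1r1 to Il1rap, 0.657 ± 0.0536 in Ctrl and 0.722 ± 0.0217 in Nfkbiz KO (mean ± SD of 3 samples each), overlapped between the groups (exact permutation test, two-sided, p = 0.3). The gene lies on chromosome 1 from 40264174 to 40356417 on the plus strand.

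**Figure D2:**
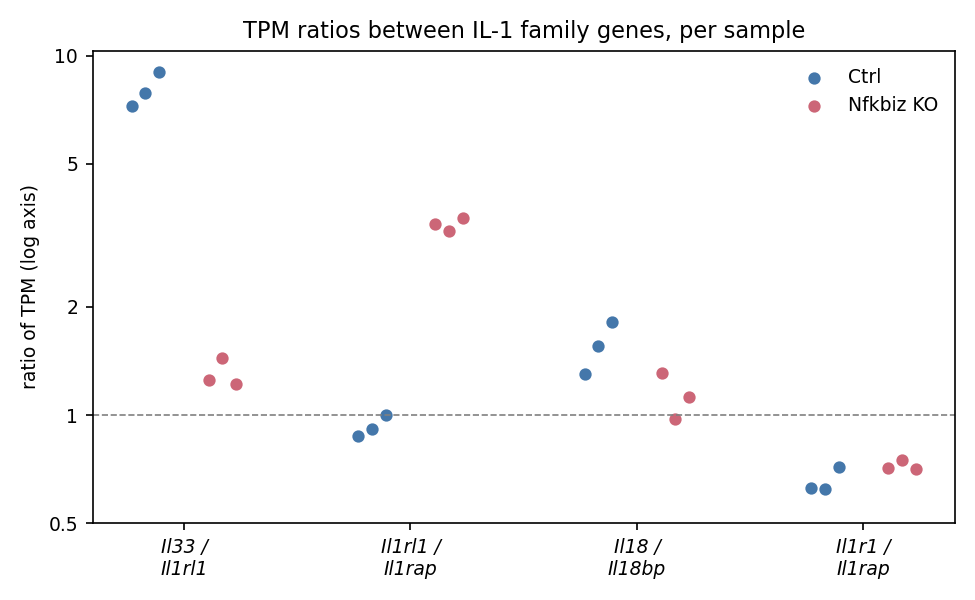
Ratio of the TPM of 2 genes in each sample (log axis, dashed line at a ratio of 1), with Ctrl in blue and Nfkbiz KO in red. Il33 over Il1rl1 is lower and Il1rl1 over Il1rap higher in all 3 Nfkbiz KO samples, and the groups overlap for Il18 over Il18bp and Il1r1 over Il1rap.

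The cytokine IL-18 and its soluble inhibitor had higher RNA levels together. Il18 (chromosome 9, 50466081 to 50493633, plus strand) had 12.4, 14.3 and 13.4 TPM in Ctrl replicates 1, 2 and 3, and 30.1, 21.6 and 26.1 TPM in Nfkbiz KO replicates 1, 2 and 3. All Nfkbiz KO values were higher, although they spread more widely than the Ctrl values. From 180 to 247 and 374 to 481 reads, the log2 fold change was 0.89 (SE 0.111, 95% interval 0.65 to 1.13, adjusted p = 5.2e-05, edgeR), a 1.85-fold increase that lay under the stricter cut-off of 2. On the opposite strand, Bco2, a carotenoid oxygenase, overlaps Il18 by 403 bases. Reads were counted without regard to strand, and Bco2, with 16 to 66 reads, had a log2 fold change of 1.24 (adjusted p = 0.0029, edgeR). In each group, Bco2 had far fewer reads than Il18, and how many reads the genes share was not tested.

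Il18bp (chromosome 7, 101638490 to 101668206, minus strand) had 9.51, 9.15 and 7.38 TPM in Ctrl replicates 1, 2 and 3, and 23.1, 22.2 and 23.2 TPM in Nfkbiz KO replicates 1, 2 and 3. The Nfkbiz KO samples lay close together and far above the Ctrl samples. The means were 8.68 ± 1.14 and 22.8 ± 0.542 TPM (mean ± SD of 3 samples each). Its reads, 306 to 318 in Ctrl and 639 to 908 in Nfkbiz KO samples, gave a log2 fold change of 1.27 (SE 0.090, 95% interval 1.07 to 1.46, adjusted p = 3.5e-07, edgeR), a 2.40-fold increase. Il18bp overlaps Numa1, a mitotic spindle protein gene on the opposite strand, by 25899 bases. Numa1 averaged 75.5 TPM in the Ctrl group against 85.3 TPM in the KO group, with a log2 fold change of 0.10 that did not pass the test (adjusted p = 0.24, edgeR). With 6654 to 9048 reads, Numa1 had far more reads than Il18bp in each group. Reads were counted without regard to strand, and how many reads the genes share was not tested.

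The balance between IL-18 and its inhibitor was less clearly different. The ratio of Il18 to Il18bp was 1.30, 1.56 and 1.82 in Ctrl replicates 1, 2 and 3, and 1.31, 0.974 and 1.13 in Nfkbiz KO replicates 1, 2 and 3. Nfkbiz KO replicate 1 lay just above Ctrl replicate 1, so the groups overlapped (exact permutation test, two-sided, p = 0.2).

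The ligands of IL-1R1 were at or near the floor. Il1b (chromosome 2, 129206490 to 129213059, minus strand) had 0 reads in all 6 samples. The exact 95% Poisson interval for 0 reads reaches 0.0318 CPM over the Ctrl and 0.0316 CPM over the Nfkbiz KO samples. Il1a (chromosome 2, 129140291 to 129152098, minus strand) had 1, 4 and 1 reads in Ctrl replicates 1, 2 and 3, and 2, 1 and 1 reads in Nfkbiz KO replicates 1, 2 and 3. A difference in Il1a was not detectable at this depth, and both genes were too low to be tested.

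Il1rn, which encodes IL-1Ra, had 0 reads in each Ctrl sample and 1, 1 and 5 reads in Nfkbiz KO replicates 1, 2 and 3. Over the Nfkbiz KO samples, the 7 reads correspond to 0.060 CPM with an exact 95% Poisson interval from 0.0241 to 0.124 CPM, and the same interval for 0 reads over the Ctrl samples reaches 0.0318 CPM. As 5 of the 7 reads came from 1 sample and the gene did not pass the filter on low counts, no fold change is given. The gene lies on chromosome 2 from 24226865 to 24241506 on the plus strand.

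Ordered by mean TPM in Ctrl, Il33 came first, followed by Il1rap, Il1rl1, Il1r1, Il18 and Il18bp. Among neighbours in this order, the ranges of Il1rap (29.9 to 39.8 TPM) and Il1rl1 (29.8 to 36.4 TPM) overlapped and all others were separate. In Nfkbiz KO, the order was Il33, Il1rl1, Il1rap, Il18, Il18bp and Il1r1. There the range of Il18 (21.6 to 30.1 TPM) overlapped those of Il1rap (26.5 to 28.9 TPM) and Il18bp (22.2 to 23.2 TPM), and the other neighbours were separate.

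Other genes of the family extended this picture. Sigirr, a receptor-like protein that dampens IL-1 and Toll-like receptor signalling, was low, with 25 to 28 reads in Ctrl and 56 to 78 reads in Nfkbiz KO samples. Its TPM rose from 0.71 ± 0.12 to 1.90 ± 0.0321 (mean ± SD of 3 samples each), a log2 fold change of 1.27 (SE 0.235, adjusted p = 0.0011, edgeR). The decoy receptor Il1r2 and the cytokines and antagonist Il36a, Il36b, Il1f10 and Il36rn had 0 reads in all samples, and Il36g had 1 read in 1 Ctrl sample. Il1rl2, the IL-36 receptor, fell from 8.70 ± 1.08 to 7.12 ± 0.67 TPM (mean ± SD of 3 samples each), with a log2 fold change of -0.35 (adjusted p = 0.011, edgeR). The brain-expressed receptor-like genes Il1rapl1, with 12 to 26 reads and a log2 fold change of 0.10 (adjusted p = 0.87, edgeR), and Il1rapl2, with 0 to 2 reads, were near the floor.

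The IL-18 receptor chains differed strongly in level. Il18rap, the accessory chain, had 43.5, 54.1 and 44.2 TPM in Ctrl replicates 1, 2 and 3, and 60.7, 58.0 and 61.6 TPM in Nfkbiz KO replicates 1, 2 and 3. It was higher in every Nfkbiz KO sample, with a log2 fold change of 0.26 (SE 0.065, adjusted p = 0.0074, edgeR). Il18r1, the chain that binds IL-18, had 4 to 9 reads in Ctrl and 10 to 16 reads in Nfkbiz KO samples and did not pass the filter on low counts. Over the groups, its 20 and 36 reads correspond to 0.173 CPM (exact 95% Poisson interval 0.106 to 0.267) and 0.308 CPM (0.216 to 0.427).

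The receptor genes Il1r2, Il1r1, Il1rl2, Il1rl1, Il18r1 and Il18rap, lie next to each other in this order within 478 kb of chromosome 1 (40113239 to 40590865 of GRCm39). Levels and changes differed along the cluster. Il1r1 and Il1rl2 fell, Il1rl1 and Il18rap rose, Il1r2 was not detected, and Il18r1, which directly follows Il1rl1, was too low to be tested.

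**Figure D3:**
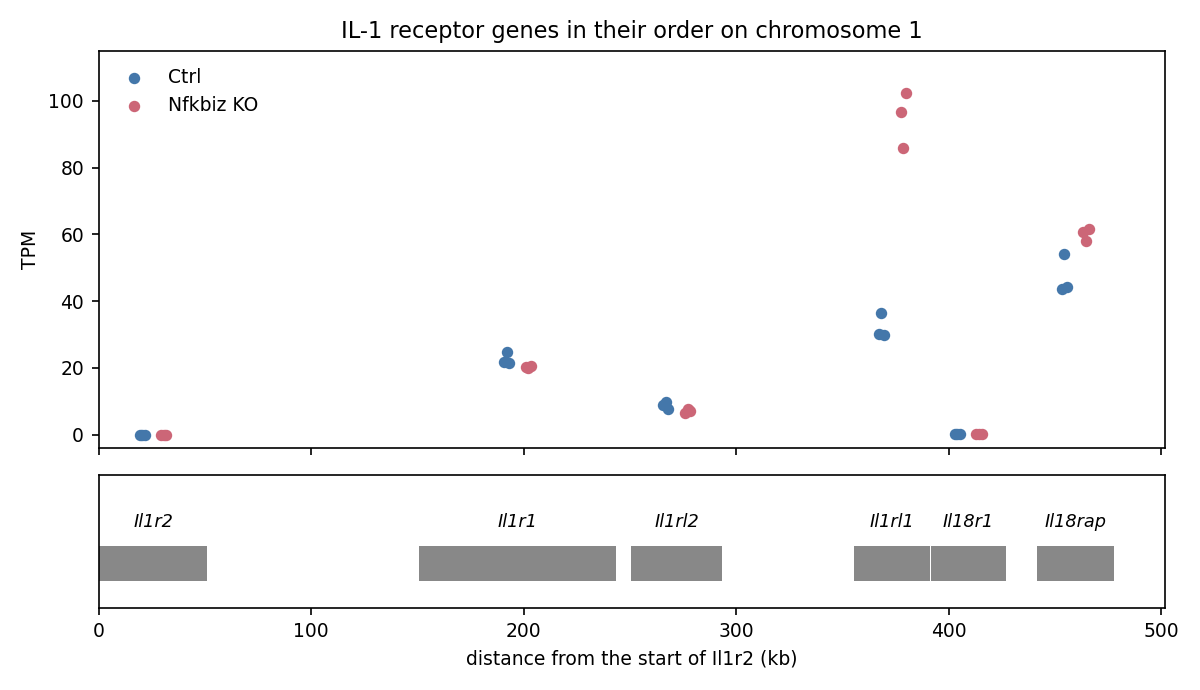
TPM per sample of 6 receptor genes in Ctrl (blue) and Nfkbiz KO (red) above their extent on chromosome 1, drawn as distance in kb from the start of Il1r2. Within the 478 kb, the Nfkbiz KO points stand far above the Ctrl points at Il1rl1 (95 against 32.1 TPM on average), less so at Il18rap, and Il1r2 and Il18r1 lie near 0.

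Across a list of 51 genes of the IL-1 pathway, which includes the 9 genes, 35 were tested, and 13 were higher and 8 lower in Nfkbiz KO at an adjusted p of 0.05 (edgeR). These are 37.1% and 22.9% of the genes tested, beside 18.2% higher and 18.4% lower among all genes. The 16 genes not tested had at most 16 reads in any sample. The median log2 fold change of the 35 genes was 0.08, beside -0.02 for all genes tested. Without the 9 genes, 29 were tested, of which 10 (34.5%) were higher and 5 (17.2%) lower, the latter close to the share among all genes. With limma on log2(TPM + 1), 13 of the 35 genes were higher and 3 lower. Over all genes, 4331 of 14419 passed in that fit, against 5274 in the main test. That fit differs from the main test in unit, normalization and model, and not every gene read enters TPM. Il1rapl1, for example, had 14 reads and 0 TPM in Ctrl replicate 3. Without Nfkbiz KO replicate 1, 10 genes of the list were higher and 5 lower. Fewer genes passed there in general, with 3803 of the 14848 tested.

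Of 13 genes of cytokine maturation and release, 9 were tested, and 5 (55.6%) were higher and 2 (22.2%) lower, beside 18.2% and 18.4% of all genes tested. Nlrp3, the sensor of the inflammasome that activates caspase-1, had 44 to 83 reads in Ctrl and 90 to 137 reads in Nfkbiz KO samples. Its level averaged 1.30 ± 0.392 TPM in Ctrl against 2.14 ± 0.261 TPM in Nfkbiz KO (mean ± SD of 3 samples each), with a log2 fold change of 0.64 (SE 0.207, adjusted p = 0.030, edgeR), and it was the only gene outside the cytokines, antagonists and receptors of this list that passed with at least a 1.5-fold change. The other 4 that were higher changed less, namely Gsdme, Ninj1, Casp4 and Gsdmd, which act in pore formation and lytic cell death, with log2 fold changes from 0.30 to 0.53. Casp1, the protease that matures IL-1β and IL-18, was lower with a log2 fold change of -0.28, as was the DNA sensor Aim2 with -0.25. Pycard, the adaptor that links these sensors to caspase-1, had 3 to 18 reads and did not pass (adjusted p = 0.15, edgeR).

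Of 17 signalling genes listed, 16 were tested, 3 were higher (Peli1, Tab2 and Map3k3) and 2 lower (Irak2 and Tab1), and none reached a 1.5-fold change. The 5 genes are 31.2% of those tested, close to the 36.6% of all genes. Irak2, a kinase-like protein that sustains signalling downstream of MyD88, had the largest change among those that passed, from 21.0 ± 0.466 to 16.1 ± 1.73 TPM (mean ± SD of 3 samples each), with a log2 fold change of -0.46 (SE 0.077, adjusted p = 0.00049, edgeR). The log2 fold change of Myd88 was 0.18 (95% interval 0.03 to 0.33, adjusted p = 0.057), and that of Traf6 was -0.06 (95% interval -0.24 to 0.12, adjusted p = 0.60). Ube2v1 is uncertain, since 7.81% of its reads were unique.

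**Figure D4:**
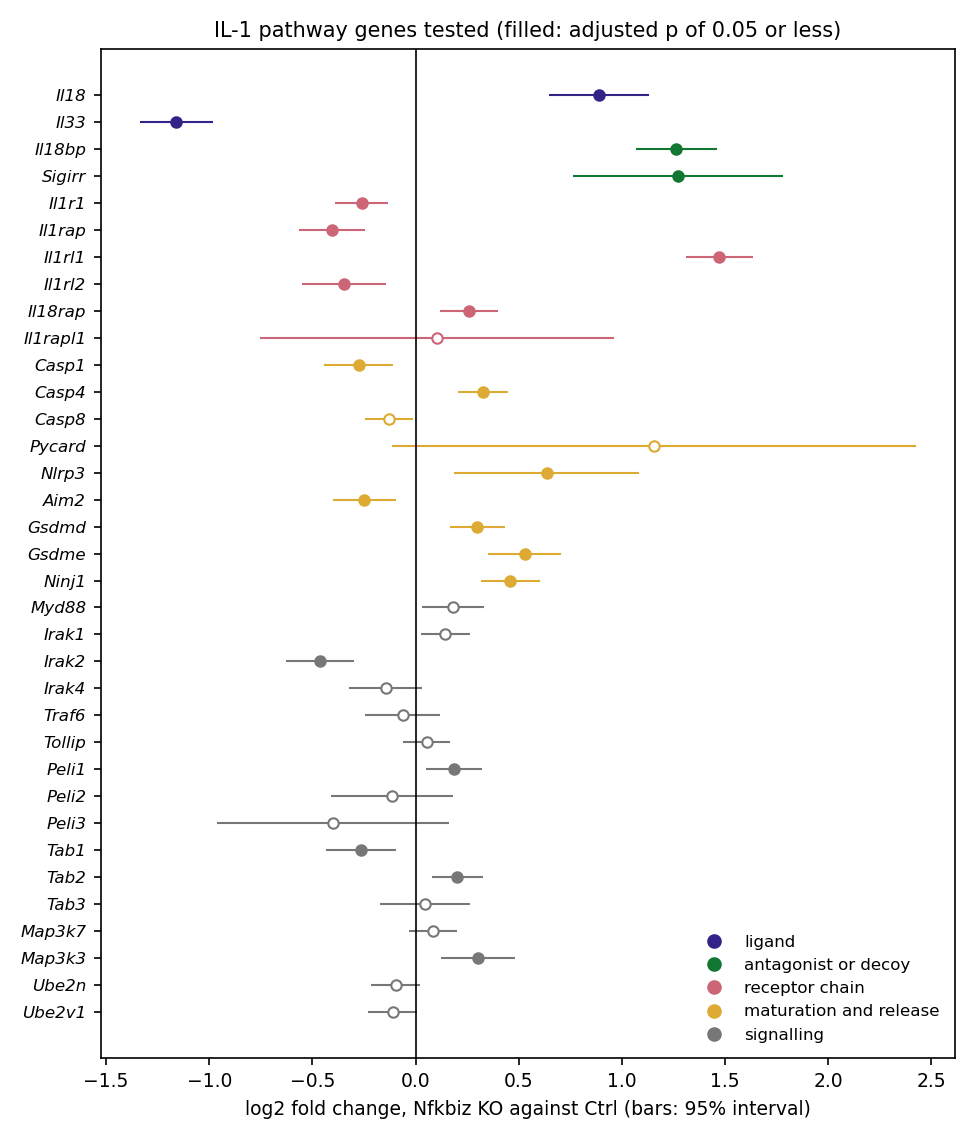
Log2 fold change of the 35 tested IL-1 pathway genes in Nfkbiz KO against Ctrl, with 95% intervals from edgeR, coloured by role and filled where the adjusted p was 0.05 or less. Il33 lies farthest to the left of 0 at -1.16 and Il1rl1 farthest to the right at 1.47, while the signalling genes (grey) lie between -0.46 and 0.30.

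Genes that IL-1 typically induces were examined as a second list of 24 genes, all of which were tested. Of these, 17 were lower and 2 higher at an adjusted p of 0.05 (edgeR), with a median log2 fold change of -0.55. Over all genes tested, 18.4% were lower and 18.2% higher, and the median was -0.02. The list contains genes already known to be lower in these samples and is therefore not independent evidence of its direction. Decreases of the largest size were those of the neutrophil chemokine Cxcl5, from 57 to 79 reads in Ctrl to 0 to 2 reads in Nfkbiz KO samples with a log2 fold change of -5.97 (SE 0.474), the siderophore-binding protein Lcn2 with -3.96 (0.090), and the granulocyte growth factor Csf3 with -3.76 (0.427). The adjusted p of these genes were 9.7e-07, 3.6e-11 and 2.3e-05 (edgeR). Vcam1, an adhesion molecule, and Tnfaip3, an inhibitor of NF-κB signalling, were higher with log2 fold changes of 0.51 and 0.46 (adjusted p of 2.5e-05 and 0.00025). Cxcl2, Ccl20, Ptgs2, Icam1 and Nfkbia did not pass the test.

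**Figure D5:**
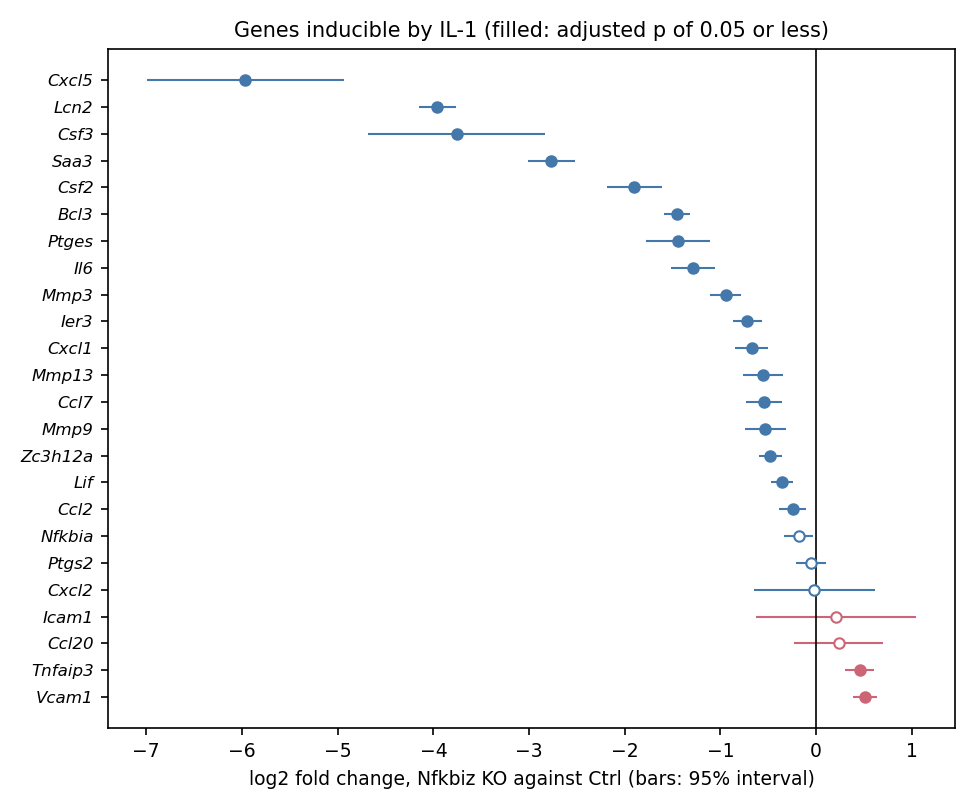
Log2 fold change of 24 genes inducible by IL-1 in Nfkbiz KO against Ctrl, with 95% intervals from edgeR, blue below and red above 0 and filled where the adjusted p was 0.05 or less. The values run from -5.97 for Cxcl5 to 0.51 for Vcam1, and 17 of the 19 filled points lie below 0.

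For the 4 family genes with at least 1.5-fold changes, the genes with the most similar log2 CPM over the 6 samples were sought by Pearson's r. They were Bnip3l, Ctps2 and 3110039M20Rik for Il33 (lowest r 0.998), C130026I21Rik and Phf11d and a gene without a symbol for Il1rl1 (lowest r 0.999), Parp12, Samhd1 and Uba7 for Il18bp (lowest r 0.999), and Angpt1, Asns and Cdr2 for Il18 (lowest r 0.996). The 6 points share the difference between the groups, and between 1502 and 1971 genes had an r above 0.9 with each of the 4, so that these values describe the samples only.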

How the data were processed

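RNA of 3 Ctrl and 3 Nfkbiz KO samples, described as independent experiments, was sequenced. The authors mapped reads with CLC Genomics Workbench without regard to strand and deposited raw counts of reads per gene (total and unique), TPM and RPKM. The mapping is described as to GRCm39, but the labels list GRCm38. Total counts were tested with edgeR 4.0.16 (TMM, filterByExpr with a minimum count of 10, quasi-likelihood test, Benjamini-Hochberg adjustment over 14419 genes) in R 4.3.3. Ratios used TPM. The alternatives were DESeq2 1.42.0, the likelihood-ratio test, RLE factors, other filters, unique reads, limma 3.58.1 on log2(TPM + 1) and log2(TPM + 0.1), a replicate block and each sample left out. The procedure was tested on data simulated with the same spread in both groups. No samples were duplicates. Between samples of a group, the chi-square per degree of freedom of the read counts was 27.8 to 71.4 in Ctrl. In Nfkbiz KO it was 3.53 to 6.24, so these samples were far more alike across genes. The main test used the same dispersion for both groups, and the reason for the unlike spread was not tested. The stricter call uses the cut-offs of the study, whose difference of 4 has no stated unit and was taken in TPM. Positions come from GENCODE on GRCm39, matched by symbol. Promoter sequences come from the RefSeq table of GRCm38.p6, which held all 9 genes, and were placed on GRCm39 by a unique exact match. The family genes and the lists of pathway, response and marker genes were chosen with earlier results of these data known. Named were the 9 genes and Nfkbiz, other family genes at any value, pathway genes passing with at least a 1.5-fold change, the 3 largest response genes in each direction (where so many passed) and the 3 genes most alike to each family gene with such a change. Other genes were named after their values were seen.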

Additional observations from a re-analysis of the deposited data

How the results depend on the processing

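Il33, Il1rl1, Il18 and Il18bp kept their direction and passed an adjusted p of 0.05 under all 15 alternatives, with log2 fold changes from -1.26 to -1.05, from 1.41 to 1.56, from 0.82 to 0.97 and from 1.19 to 1.39. Those of Il1r1 (-0.29 to -0.16) and Il1rap (-0.48 to -0.29) kept their direction but did not pass with limma. On log2(TPM + 0.1), Il1r1 had -0.16 (adjusted p = 0.12) and Il1rap -0.30 (adjusted p = 0.097). On log2(TPM + 1), they had -0.16 (adjusted p = 0.12) and -0.29 (adjusted p = 0.092). Thus 4 family genes passed there, and the number of lower pathway genes was 3 in both fits against 8. With each sample left out in turn, it lay between 5 and 8, with 5 without Nfkbiz KO replicate 1. Over all genes tested, the median log2 fold change was -0.02 in the main test. In the limma fits it was 0.06 on log2(TPM + 1) and 0.08 on log2(TPM + 0.1). The cause of these differences between fits was not tested. With the difference cut-off in RPKM, 2 family genes were called, since Il18bp differed by less than 4 RPKM. The number of lower response genes lay between 15 and 18, and of higher ones at 2.

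Samples with the same replicate number deviated little together (correlations of 0.037, -0.023 and 0.026 across genes). Only Ctrl replicate 1 correlated most highly with the Nfkbiz KO sample of its own number. With 3 samples a group, these values are too few to settle whether the samples were paired. With the replicate block, 6 family genes passed, 12 pathway genes were higher and 8 lower, and all genes passing fell from 5274 to 5087.

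With 3 samples a group, the exact tests cannot go below 0.1. Depth limits Il1a, Il1b, Il1rn and Il18r1. Gene counts do not resolve isoforms, and RNA does not measure protein.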
